A study of Homo sapiens with 6 samples.

Results

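The feedback inhibitors of the ERK pathway followed here were 10 genes chosen by name, of 19775 genes that a probe set of the array named alone. They were 5 dual-specificity phosphatases (DUSP1, DUSP4, DUSP5, DUSP6 and DUSP10), the Sprouty genes SPRY2 and SPRY4, the Spred genes SPRED1 and SPRED2, and ETV4, a transcription factor of the ETS family. A total of 22 of 54613 probe sets belonged to them, and none of the 22 named a further gene. All 10 genes were among the 13398 that passed the filter on dim signals, as were 20 of their 22 probe sets. IMR90 cells are human diploid lung fibroblasts, and every culture carried ER:Ras, an oncogenic Ras joined to the hormone-binding part of the estrogen receptor, which 4-hydroxytamoxifen (4-OHT) switches on. No 4-OHT and no siRNA are stated for the growing cells. Ctrl-KD OIS cells (siControl) and RB-KD OIS cells (siRB1) had 6 days in 100 nM 4-OHT, which induces oncogene-induced senescence (OIS). They carried a control siRNA or siRNA against RB1 for the last 4 of those days. The paper reports that RB knockdown raised the cell cycle genes MCM3 and MCM5 and partly restored DNA replication. Moderately fewer cells had the heterochromatin foci of senescence. Arrest thus also differed between the OIS states, and its part in the results was not tested. Each state had 2 biological replicates, numbered 1 and 2, on Affymetrix U133 Plus 2.0 arrays. As far as is stated, growing cells differed from both OIS states in 4-OHT and in transfection. The effects of drug, oncogene, senescence and transfection therefore cannot be told apart in that comparison. In these bulk samples, fewer cells that carry a transcript and less transcript per cell cannot be told apart either.

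RB1, the targeted gene, gave signals of 2627 and 2528 on the growing arrays, 2578 and 1914 on the Ctrl-KD OIS arrays, and 222 and 228 on the RB-KD OIS arrays. These values fit the labels of the RB-KD OIS arrays, while RB1 does not separate the growing from the Ctrl-KD OIS arrays. The HRAS probe set read between 18685 and 27036 throughout. Its log2 fold change was 0.08 between Ctrl-KD OIS and growing cells (adjusted p = 0.570) and -0.36 with RB1 siRNA relative to control siRNA (adjusted p = 0.0283), and whether it reads the ER:Ras transcript is not known. The latter no longer passed without either growing array, Ctrl-KD OIS replicate 2 or either RB-KD OIS array (adjusted p = 0.0584 to 0.134, log2 fold change -0.40 to -0.23). All 7 fibroblast markers lay above the array median on every array, with summed signals of 205244 to 207949 in growing, 153214 to 154510 in Ctrl-KD OIS and 162534 to 191117 in RB-KD OIS cells. Of 5 epithelial markers, KRT8 lay above the median on all 6 arrays, EPCAM on 5, CLDN4 on 3, KRT19 on 1 and the defining marker CDH1 on 0. Of 4 endothelial markers, TEK (302 to 1378.5) and PECAM1 lay above it on all 6, VWF on 3 and the defining marker CDH5 on 0. Of 4 leukocyte markers 0 lay above it on all arrays. The summed signal was 303 to 404, 169 to 233 and 275 to 317 for the 5 epithelial markers, 1286 to 1417, 510 to 532 and 1419 to 1557 for the 4 endothelial markers, and 153 to 191, 131 to 159 and 98.9 to 106 for the leukocyte markers, in the same order of states. The part of these levels in the results was not tested.

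In the ERK cascade, growth factor receptors load Ras with GTP, Ras recruits RAF kinases to the membrane, RAF activates the kinase MEK, and MEK phosphorylates ERK on a threonine and a tyrosine. Active ERK enters the nucleus, where it switches on genes through ETS factors, the serum response factor and AP-1, and some of those genes encode brakes on the cascade. Dual-specificity phosphatases remove both phosphates from ERK or its relatives p38 and JNK, Sprouty proteins interrupt signalling between receptors and RAF, and Spred proteins bring neurofibromin to the membrane, where it returns Ras to its inactive form. Because these brakes are made in response to ERK, their transcripts are widely used as a readout of the pathway. Oncogenic Ras is known to raise several of them in fibroblasts entering senescence.

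Promoter sequence is shown for DUSP6 and SPRY2, which rose most among the genes with an entry, and for DUSP1 and SPRY4, which like SPRY2 hold matches to the cAMP response element, a site read by factors downstream of several kinases. The 250 bases before the start site were searched in RefSeq windows of GRCh38.p14, of which 11 belonged to 7 of the 10 genes. In the 4 windows below, each read 5′ to 3′ on the minus strand with the start site after the last base, capitals mark the cAMP response element TGACGTCA and its short form TGACG, found on either strand, so that CGTCA in capitals is the short form on the reverse strand. The DUSP1 window is chr5:172771196-172771445, DUSP6 chr12:89352502-89352751, SPRY2 chr13:80341127-80341376 (the window of its most upstream start) and SPRY4 chr5:142324248-142324497.
DUSP1: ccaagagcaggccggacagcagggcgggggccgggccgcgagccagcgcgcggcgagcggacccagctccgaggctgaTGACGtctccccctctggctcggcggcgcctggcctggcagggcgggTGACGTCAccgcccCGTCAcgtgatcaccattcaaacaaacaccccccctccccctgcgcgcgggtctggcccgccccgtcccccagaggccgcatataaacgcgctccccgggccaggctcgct
DUSP6: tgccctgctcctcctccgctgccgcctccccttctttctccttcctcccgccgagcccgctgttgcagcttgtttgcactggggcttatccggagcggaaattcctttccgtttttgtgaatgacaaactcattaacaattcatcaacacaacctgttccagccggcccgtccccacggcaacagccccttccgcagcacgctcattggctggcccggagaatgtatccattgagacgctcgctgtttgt
SPRY2: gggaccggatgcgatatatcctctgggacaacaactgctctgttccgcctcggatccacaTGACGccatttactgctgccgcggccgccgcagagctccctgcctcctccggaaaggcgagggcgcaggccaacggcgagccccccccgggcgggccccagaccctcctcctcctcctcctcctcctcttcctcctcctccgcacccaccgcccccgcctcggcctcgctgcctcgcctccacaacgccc
SPRY4: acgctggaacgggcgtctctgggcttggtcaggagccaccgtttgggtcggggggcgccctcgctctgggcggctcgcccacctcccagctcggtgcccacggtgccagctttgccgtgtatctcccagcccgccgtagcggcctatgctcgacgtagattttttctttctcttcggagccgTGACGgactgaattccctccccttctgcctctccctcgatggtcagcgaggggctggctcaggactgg
The full element stood once in the DUSP1 window, 125 to 118 bases before the start, and 1.65% of 35114 windows of this length held it. Each full element also holds the short form on both strands. The short form stood at 2 more places in the DUSP1 window, 172 to 168 and 111 to 107 bases before the start, once in the SPRY2 window at 190 to 186 and once in the SPRY4 window at 68 to 64, and 21.2% of all windows held it. The DUSP6 window held neither. No window of the 7 genes held the AP-1 motif TGANTCA (6.57% of all windows), the ETS motif CCGGAAGT (3.42%), the CArG box of the serum response factor (1.16%) or the E2F motif TTTNNCGC (5.92%), searched on both strands. These are matches of letters in short windows and say nothing about binding.

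The first question was how these transcripts differed between growing and senescent cells. Of the 10 genes, 8 rose and 1 fell in Ctrl-KD OIS cells, and 1 did not pass the test. Across all tested genes 20.5% rose and 21.2% fell, and the median log2 fold change was 0.85 over the 10 genes against -0.01 over all genes. The fold changes come from limma, fitted across all tested genes on the log2 MAS5 signal of the brightest probe set of each gene, and a call is an adjusted p under 0.05. The risers spanned from DUSP4, 8.68-fold higher, to DUSP1, 1.39-fold higher.

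DUSP6, a cytoplasmic phosphatase that acts on ERK in particular, read 4530 and 4076 in growing cells, 19899 and 15993 in Ctrl-KD OIS cells and 17844 and 16856 in RB-KD OIS cells. All 4 OIS arrays thus stood well above both growing arrays. DUSP6 rose 4.15-fold in Ctrl-KD OIS cells (log2 fold change 2.05, standard error 0.11, adjusted p = 1.21e-06, 95% interval 1.80 to 2.30). Its signals stayed clear of the top of the scale, since the highest was 30.8% of the highest signal in the table.

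DUSP5, the nuclear phosphatase that binds and dephosphorylates ERK, read 1416 and 1394 in growing, 4578 and 5200 in Ctrl-KD OIS and 5093 and 6033 in RB-KD OIS cells. The growing arrays were nearly equal and all 4 OIS arrays lay above them. The rise in Ctrl-KD OIS cells was 3.47-fold (log2 fold change 1.80, standard error 0.11, adjusted p = 2.19e-06).

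DUSP4 is a nuclear phosphatase with a wider range, acting on ERK and on other MAP kinases. It was dim in growing cells, at 103 and 86.2, and read 1015 and 659 in Ctrl-KD OIS and 1622 and 1160 in RB-KD OIS cells. Both growing arrays were still above the array median, so the change has 2 measured sides. DUSP4 rose 8.68-fold in Ctrl-KD OIS cells (log2 fold change 3.12, standard error 0.24, adjusted p = 9.28e-06, 95% interval 2.58 to 3.65), the largest change among the 10 genes and rank 158 among the rises of all tested genes.

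DUSP1 is the immediate-early phosphatase induced by stress as well as by growth factors, and acts on p38 and JNK besides ERK. It read 5606.5 and 5205 in growing, 6852 and 8216 in Ctrl-KD OIS and 5288.5 and 5970 in RB-KD OIS cells. The Ctrl-KD OIS arrays stood above all others, while the growing and RB-KD OIS arrays overlapped. The rise in Ctrl-KD OIS cells was 1.39-fold (log2 fold change 0.47, standard error 0.11, adjusted p = 0.00667). This rise was lost in limma with no trend in the prior variance (adjusted p = 0.0612) or with the mean of all probe sets (0.58, adjusted p = 0.135). Without growing replicate 2 it no longer passed (log2 fold change 0.42, adjusted p = 0.0607).

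DUSP10, which prefers p38 and JNK to ERK, was the only one of the 10 genes that fell. It read 2682 and 2556 in growing, 1376 and 1545 in Ctrl-KD OIS and 1767 and 1826 in RB-KD OIS cells. Both OIS states lay below growing cells, and the Ctrl-KD OIS arrays were the lowest. DUSP10 was 1.80-fold lower in Ctrl-KD OIS cells (log2 fold change -0.84, standard error 0.10, adjusted p = 0.000131).

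**Figure D1:**
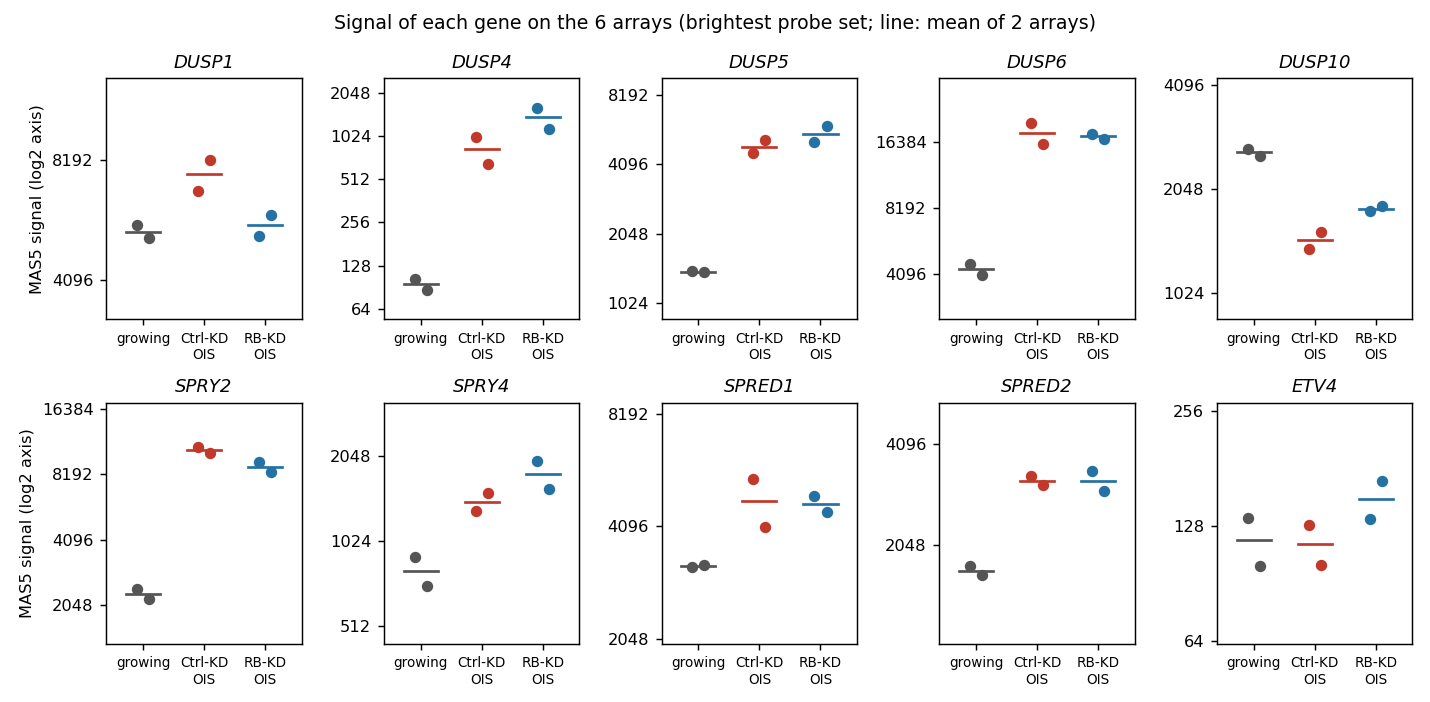
MAS5 signal (log2 axis, a separate range for each panel) of the brightest probe set of the 10 genes on the 2 growing (grey), 2 Ctrl-KD OIS (red) and 2 RB-KD OIS (blue) arrays, with a point per array and a line at the mean of the 2 signals. For DUSP4, DUSP5, DUSP6 and SPRY2 the 4 OIS arrays stand far above the growing arrays, for DUSP10 they stand below, and for ETV4 the growing arrays overlap both OIS states.

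Among the Sprouty genes, SPRY2 read 2427 and 2185 in growing, 10920 and 10271 in Ctrl-KD OIS and 9322 and 8399 in RB-KD OIS cells. The states did not overlap, with Ctrl-KD OIS highest and growing lowest. SPRY2 rose 4.60-fold in Ctrl-KD OIS cells (log2 fold change 2.20, standard error 0.09, adjusted p = 2.84e-07), the lowest adjusted p of the 10 genes. SPRY4 changed less. It read 898 and 712 in growing, 1309 and 1512 in Ctrl-KD OIS and 1977 and 1564 in RB-KD OIS cells, and rose 1.76-fold in Ctrl-KD OIS cells (log2 fold change 0.82, standard error 0.16, adjusted p = 0.00257).

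The Spred genes rose by less than 2-fold. SPRED2 read 1767 and 1666 in growing, 3285 and 3076.5 in Ctrl-KD OIS and 3386 and 2958 in RB-KD OIS cells, a rise of 1.85-fold in Ctrl-KD OIS cells (log2 fold change 0.89, standard error 0.10, adjusted p = 0.000101). SPRED1 read 3179 and 3232 in growing, 5474.5 and 4072 in Ctrl-KD OIS and 4934 and 4482 in RB-KD OIS cells. The Ctrl-KD OIS arrays of SPRED1 differed more from each other than did those of SPRED2. The rise of SPRED1 was 1.47-fold (log2 fold change 0.56, standard error 0.13, adjusted p = 0.00771). It no longer passed in limma with no trend in the prior variance (adjusted p = 0.0686) or with the mean of all probe sets (0.25, adjusted p = 0.252).

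ETV4 is no inhibitor but a PEA3-type ETS factor, through which ERK activates genes and whose transcript is used as a pathway readout. It read 134.5 and 101 in growing, 129 and 101.5 in Ctrl-KD OIS and 133.4 and 168.5 in RB-KD OIS cells, and the growing arrays overlapped both OIS states. In Ctrl-KD OIS cells it stood at -0.03 on the log2 scale, with a standard error of 0.31 and a 95% interval from -0.72 to 0.67 (adjusted p = 0.956). A change of up to about the size seen for SPRED1 in either direction thus lay within the interval. The closest relatives of ETV4, named after their values were seen, were ETV5, which fell (log2 fold change -0.37, adjusted p = 0.0258), and ETV1, at 0.14 (adjusted p = 0.455). ETV5 no longer passed with the mean of its probe sets (-0.14, adjusted p = 0.640) or with each array centred on its median (-0.28, adjusted p = 0.125). It was also lost in limma with no trend in the prior variance (adjusted p = 0.0890). The change of ETV5 shrank to -0.26 without growing replicate 2 and to -0.29 without Ctrl-KD OIS replicate 2.

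In RB-KD OIS cells, 7 of the 10 genes were higher than in growing cells, 1 was lower and 2 did not pass. Across all tested genes 18.5% were higher and 19.0% lower, and the median log2 fold change was 1.01 over the 10 genes against -0.02 over all genes. Centring each array on its median moved the median of all genes in this comparison to 0.10 and the calls from 2481 higher and 2552 lower to 3097 and 1984. The counts of the 10 genes stayed at 7 and 1 under that scaling. This comparison shares its growing arrays with the previous one, so the 2 are not independent.

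DUSP4 again changed most, at 14.6-fold above growing cells (log2 fold change 3.86, standard error 0.24, adjusted p = 3.48e-06), followed by DUSP6 at 4.04-fold (2.01, adjusted p = 1.83e-06), DUSP5 at 3.95-fold (1.98, adjusted p = 1.73e-06) and SPRY2 at 3.84-fold (1.94, adjusted p = 7.69e-07). SPRY4 rose 2.20-fold (1.14, adjusted p = 0.000448), SPRED2 by 0.88 (adjusted p = 0.000139) and SPRED1 by 0.55 on the log2 scale (adjusted p = 0.00922). The call of SPRED1 was lost without growing replicate 1 (0.54, adjusted p = 0.0514) and without RB-KD OIS replicate 1 (0.48, adjusted p = 0.0673). DUSP10 fell by 0.54 on the log2 scale (adjusted p = 0.00229). The genes that did not pass were DUSP1, at 0.06 with a 95% interval from -0.19 to 0.30 (adjusted p = 0.724), and ETV4, at 0.37 with an interval from -0.33 to 1.06 (adjusted p = 0.393).

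**Figure D2:**
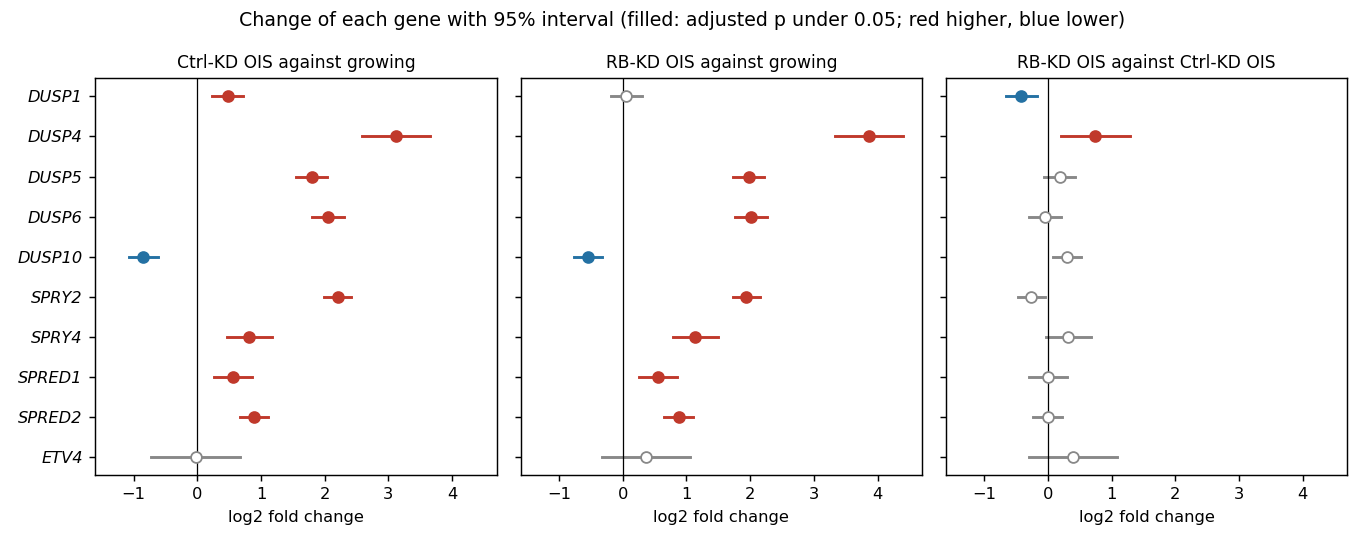
Log2 fold change of each of the 10 genes in the 3 comparisons, with points for the limma estimate and bars for the 95% interval; filled points have an adjusted p under 0.05, red for higher and blue for lower. In both comparisons with growing cells the points run from DUSP10, the only gene lower, to DUSP4 at 3.12 and 3.86, whereas between the OIS states 8 of the 10 points are open and all lie between -0.42 and 0.75.

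The second question was whether the feedback inhibitors differed between the OIS states, with or without depletion of RB, the retinoblastoma protein that represses E2F target genes. In RB-KD OIS relative to Ctrl-KD OIS cells, 1 of the 10 genes was higher, 1 was lower and 8 did not pass. Of all tested genes 12.6% were higher and 11.6% lower, so the share among the 10 was close to that of the array, and the median log2 fold change was 0.09 against -0.02 over all genes. The gene that passed as lower was DUSP1 (log2 fold change -0.42, standard error 0.11, adjusted p = 0.0224, 95% interval -0.66 to -0.17), with both RB-KD OIS arrays below both Ctrl-KD OIS arrays and overlapping the growing arrays. The call was lost without Ctrl-KD OIS replicate 2 (-0.29, adjusted p = 0.0989) and without RB-KD OIS replicate 1 (-0.33, adjusted p = 0.138).

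DUSP4 passed as higher with RB depleted, narrowly (log2 fold change 0.75, adjusted p = 0.0491, 95% interval 0.21 to 1.28). Both RB-KD OIS arrays, at 1622 and 1160, were above the Ctrl-KD OIS arrays, at 1015 and 659. The call was lost without growing replicate 1 (adjusted p = 0.0531), growing replicate 2 (0.0523), Ctrl-KD OIS replicate 2 (0.43, adjusted p = 0.261) or RB-KD OIS replicate 1 (0.50, adjusted p = 0.291).

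The genes that rose most next to DUSP4 gave narrow intervals between the OIS states. DUSP6 was at -0.04 (95% interval -0.29 to 0.21, adjusted p = 0.834), so its signal with RB depleted lay between 0.817 and 1.16 times that of Ctrl-KD OIS cells at this confidence. DUSP5 was at 0.18 (-0.06 to 0.43, adjusted p = 0.262), and SPRY2 at -0.26 (-0.47 to -0.05, adjusted p = 0.0738), with both RB-KD OIS arrays below the Ctrl-KD OIS arrays. SPRED1 and SPRED2 both stood at -0.01, with intervals from -0.30 to 0.29 and from -0.23 to 0.22. SPRY4 was at 0.32 (-0.03 to 0.68, adjusted p = 0.177) and ETV4 at 0.39 (-0.30 to 1.09, adjusted p = 0.408). DUSP10 was at 0.30 (0.08 to 0.53, adjusted p = 0.0555), with both RB-KD OIS arrays between the Ctrl-KD OIS and the growing arrays. Its adjusted p was 0.0387 without Ctrl-KD OIS replicate 2 (log2 fold change 0.38).

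Genes with several probe sets were next read probe set by probe set, in a fit over all 30139 tested probe sets. Of the 20 tested probe sets of the 10 genes, 14 rose and 2 fell in Ctrl-KD OIS cells, where 15.8% of all probe sets rose and 18.3% fell. In RB-KD OIS against growing cells 11 were higher and 2 lower, against 14.0% and 16.5% of all. Between the OIS states 0 passed as higher and 1 as lower, against 8.96% and 7.93% of all; at an unadjusted p under 0.05 limma gave 2 higher and 2 lower. Probe sets of the same gene share their RNA and are not replicates, and each was compared only with itself across the arrays.

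The 3 probe sets of DUSP6 gave log2 fold changes of 1.91 to 2.05 in Ctrl-KD OIS and 2.01 to 2.08 in RB-KD OIS cells against growing cells, and -0.04 to 0.17 between the OIS states. The 3 of DUSP4 gave 2.83 to 3.12 and 2.81 to 3.86 against growing cells. Between the OIS states the DUSP4 probe sets did not share a direction. 204014_at gave 0.75 (adjusted p = 0.0582 in this fit), 226034_at, with signals of 686 and 548 in Ctrl-KD OIS and 875 and 671 in RB-KD OIS cells, gave 0.32 (adjusted p = 0.537), and 204015_s_at, with 967 and 768 against 814 and 798, gave -0.10 (adjusted p = 0.755). None of the 3 thus passed between the OIS states in this fit.

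DUSP1 was also read by 2 dimmer probe sets. 201044_x_at read 44 and 67.2 in growing, 120 and 147 in Ctrl-KD OIS and 81.1 and 85.9 in RB-KD OIS cells, a rise of 1.29 on the log2 scale in Ctrl-KD OIS cells (adjusted p = 0.022). Its RB-KD OIS arrays lay below the Ctrl-KD OIS arrays, as on the brightest probe set, at -0.67 (adjusted p = 0.264). 226578_s_at read between 20.5 and 71 with no order of the states, and none of its comparisons passed. The second probe set of DUSP10, 215501_s_at, fell by 0.66 (adjusted p = 0.00256) with control siRNA and by 0.45 (adjusted p = 0.0208) with RB1 siRNA, each against growing cells.

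For SPRED1 only the brightest of 3 probe sets passed. 235074_at read 856 and 743 in growing, 787.5 and 646 in Ctrl-KD OIS and 915 and 570 in RB-KD OIS cells, with log2 fold changes of -0.16 and -0.14 against growing cells, and 244439_at, between 92 and 187, gave 0.36 (adjusted p = 0.328) and 0.75 (adjusted p = 0.0572). The 2 probe sets that did not pass the filter belonged to SPRED2 and read 2.5 to 25.7 (212466_at) and 1 to 4.6 (214026_s_at), under the median on all 6 arrays. The probe sets of ETV4 disagreed. 211603_s_at read 82.7 and 29.2 in growing, 133.1 and 123 in Ctrl-KD OIS and 110 and 111 in RB-KD OIS cells, and its rise of 1.38 passed in Ctrl-KD OIS cells (adjusted p = 0.048, or 0.0819 with no filter on dim probe sets) while its change of 1.17 with RB depleted did not (adjusted p = 0.0928). The brighter 1554576_a_at passed in neither comparison.

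**Figure D3:**
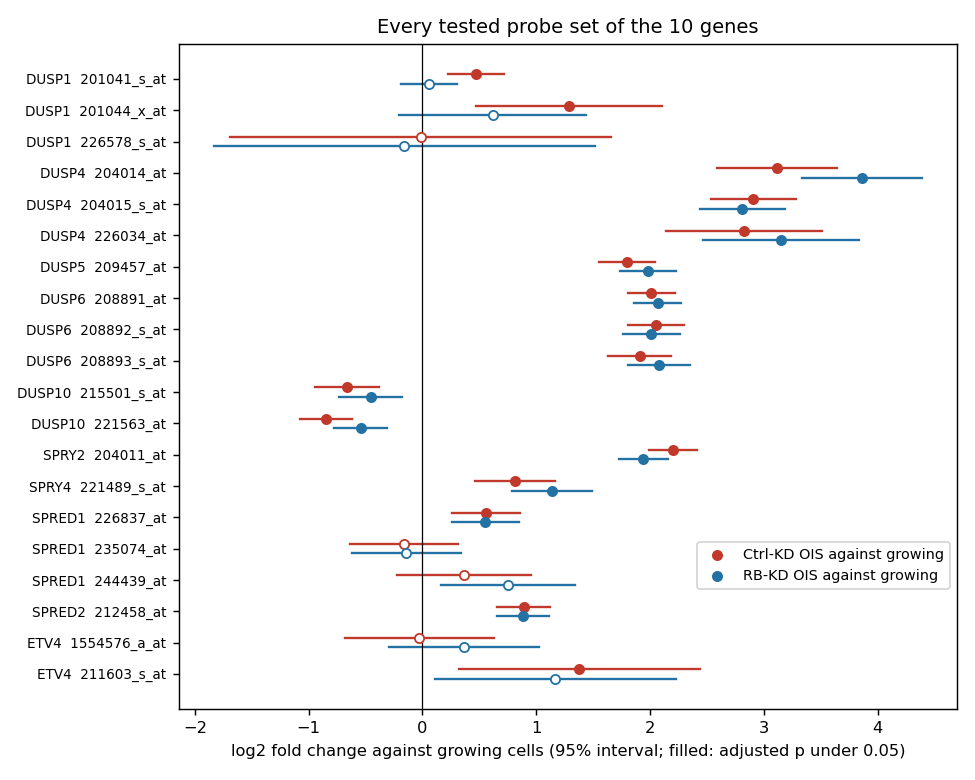
Log2 fold change against growing cells of each of the 20 tested probe sets of the 10 genes, red for Ctrl-KD OIS and blue for RB-KD OIS cells, with 95% intervals; filled points have an adjusted p under 0.05. The 3 probe sets of DUSP6 lie close together and all those of DUSP4 lie above 2.8, whereas for DUSP1, SPRED1 and ETV4 filled and open points occur side by side, with the dim 226578_s_at giving the widest intervals.

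The transcripts around these brakes were read from lists of the rest of the pathway, whose counts stand against shares of all tested genes of 20.5% higher and 21.2% lower for Ctrl-KD OIS and 18.5% and 19.0% for RB-KD OIS relative to growing cells, and 12.6% and 11.6% between the OIS states. Of 22 tested genes of the Ras and ERK cascade (29 listed), 8 rose and 4 fell in Ctrl-KD OIS cells (median log2 fold change 0.07), and 7 rose and 7 fell when RB-KD OIS cells were set against growing cells (median -0.14). The 8 risers were 5 without growing replicate 2. The 7 and 7 were 4 and 3 without growing replicate 1, 4 and 5 without growing replicate 2, and 3 and 6 without RB-KD OIS replicate 2. The ribosomal S6 kinase RPS6KA2, a substrate kinase of ERK, fell in these comparisons. Its log2 fold changes were -3.13 (adjusted p = 1.70e-06) and -3.08 (adjusted p = 2.74e-06). The related kinase RPS6KA3 rose by 0.95 (adjusted p = 4.06e-05) and by 1.32 (adjusted p = 8.15e-06) on the same scale. The scaffold KSR1 fell by 1.16 and by 1.19 (adjusted p = 0.00468 and 0.00480), and RASGRP3, a Ras exchange factor under the array median in growing cells, was at least 1.64-fold and 3.80-fold higher. The call of KSR1 in RB-KD OIS cells was lost without growing replicate 1 (-0.94, adjusted p = 0.0501), and that of RASGRP3 in Ctrl-KD OIS cells without growing replicate 2, Ctrl-KD OIS replicate 1 or either RB-KD OIS array (adjusted p = 0.0625 to 0.200). With RB depleted, 2 cascade genes were higher and 8 lower than in Ctrl-KD OIS cells, among them LAMTOR3, the MEK scaffold (-0.68, adjusted p = 0.00103), the adaptor SHC1 (-0.53, adjusted p = 0.00204) and the MEK gene MAP2K2 (-0.51, adjusted p = 0.00516). The 8 lower genes were 7 without Ctrl-KD OIS replicate 1 and 5 without any other single array. With each gene's probe sets averaged, the calls of KSR1 (-0.55 and -1.29, adjusted p = 0.487 and 0.116), RASGRP3 (adjusted p = 0.815 and 0.400) and MAP2K2 (0.31, adjusted p = 0.480) were lost.

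The other phosphatases and negative regulators were called in both directions. Of all tested genes 20.5% and 21.2%, 18.5% and 19.0%, and 12.6% and 11.6% were higher and lower in the 3 comparisons. Of 18 tested dual-specificity phosphatases outside the 10 genes, 6 rose and 4 fell in Ctrl-KD OIS cells, 4 rose and 2 fell in RB-KD OIS cells, and 1 was higher and 1 lower between the OIS states. The medians were -0.03, -0.0047 and -0.08. The list also held STYX, STYXL1 and the Slingshot genes such as SSH1, and not all of its genes act on MAP kinases. The calls between the OIS states were SSH1, higher (0.56, adjusted p = 0.0151), and STYXL1, lower (-0.63, adjusted p = 0.00207). Neither passed with the mean of its probe sets (0.59 and -0.32, adjusted p = 0.281 and 0.128). DUSP16, which acts on JNK and p38, rose by 1.43 (adjusted p = 0.00018) and by 1.12 (adjusted p = 0.000967) on the log2 scale. Without growing replicate 2 the counts in RB-KD OIS cells were 1 and 0, and over all single arrays left out they were 4 to 6 and 2 to 4, 1 to 4 and 0 to 3, and 0 to 1 and 1 to 3 in the 3 comparisons. With the mean of its probe sets DUSP16 no longer passed in RB-KD OIS cells (1.11, adjusted p = 0.129). Of 17 tested other negative regulators, 4 rose and 3 fell, then 4 and 3, and 1 was higher and 3 lower between the OIS states. Their medians were 0.23, -0.06 and -0.12. With RB depleted, LRIG1 was the higher gene (1.10, adjusted p = 0.000454) and IL17RD was lowered most (-1.65, adjusted p = 0.0139). Averaging the probe sets of each lost both calls (0.36 and -1.27, adjusted p = 0.681 and 0.271). ERRFI1, an inhibitor of the EGF receptor that growth factor signalling induces, read 3527 and 3524 in growing, 13346 and 13464 in Ctrl-KD OIS and 7934 and 9238 in RB-KD OIS cells. Its log2 fold change was 1.93 (adjusted p = 5.40e-07) with control siRNA and 1.28 (adjusted p = 8.41e-06) with RB1 siRNA against growing cells, and -0.65 (adjusted p = 0.00113) between the OIS states. SPRY1, another Sprouty gene, went the other way from SPRY2 and SPRY4. It read 422 and 351 in growing, 208 and 108 in Ctrl-KD OIS and 251 and 190 in RB-KD OIS cells, and fell in Ctrl-KD OIS cells (log2 fold change -1.36, adjusted p = 0.00672), while with RB1 siRNA it stood at -0.82 (adjusted p = 0.0693, and 0.0215 or 0.0177 without Ctrl-KD OIS replicate 1 or 2). The fall in Ctrl-KD OIS cells was lost with the mean of its probe sets (-0.60, adjusted p = 0.244). SPRED3, at 270 and 341 in Ctrl-KD OIS and 154 and 151 in RB-KD OIS cells, was lower with RB depleted (-0.99, adjusted p = 0.00912), a call lost without Ctrl-KD OIS replicate 2 (-0.82, adjusted p = 0.0579).

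Other transcripts known to depend on ERK included well-known immediate-early genes. Of 23 tested, 13 rose and 4 fell in Ctrl-KD OIS cells (median 0.81, or 0.46 with the 2 genes under the array median in growing cells, FOS and FOSB, at their lower bound), 13 rose and 3 fell in RB-KD OIS cells (median 0.62), and the OIS states differed in 3 genes that were higher and 3 that were lower with RB depleted (median -0.06). The 13 of 23 risers in each comparison with growing cells made a larger share than the 20.5% and 18.5% of all genes. This list was chosen with earlier results of these data known, so the larger share is a description and no test. Leaving out single arrays gave 10 to 13 risers in each, and the 4 that fell in Ctrl-KD OIS cells were 2 without either growing array or Ctrl-KD OIS replicate 1, and 1 without Ctrl-KD OIS replicate 2. The immediate-early factor EGR3 rose by 3.08 (adjusted p = 8.76e-05) and 2.64 (adjusted p = 0.000296) on the log2 scale, the cytokine LIF by 3.02 (adjusted p = 2.54e-07) and 2.96, and FOS, under the array median in growing cells, was at least 2.39-fold and 2.48-fold higher. The first call of FOS was lost without Ctrl-KD OIS replicate 1 (adjusted p = 0.113) and the other without RB-KD OIS replicate 1 or 2 (adjusted p = 0.0791 and 0.0861). IER3 rose by 2.53 (adjusted p = 1.50e-07) and 2.74. Between the OIS states HBEGF, a ligand of the EGF receptor, was lower with RB depleted (-1.09, adjusted p = 0.00108). So was the AP-1 subunit FOSL1 (-0.92, adjusted p = 0.00137), while SRF (0.58, adjusted p = 0.00894) and ETV1 (0.89, adjusted p = 0.00197) were higher. FOSL1 read 993 and 853 in growing, 790 and 845 in Ctrl-KD OIS and 411 and 452 in RB-KD OIS cells, below growing cells on all OIS arrays. SRF read 731.5 and 739, 444 and 439, and 653 and 669 in the same order. The RB-KD OIS arrays of SRF thus lay between those of the other states. With each gene's probe sets averaged, the calls of HBEGF (-0.22, adjusted p = 0.820), SRF (-0.041, adjusted p = 0.967) and ETV1 (1.00, adjusted p = 0.0532) were lost.

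**Figure D4:**
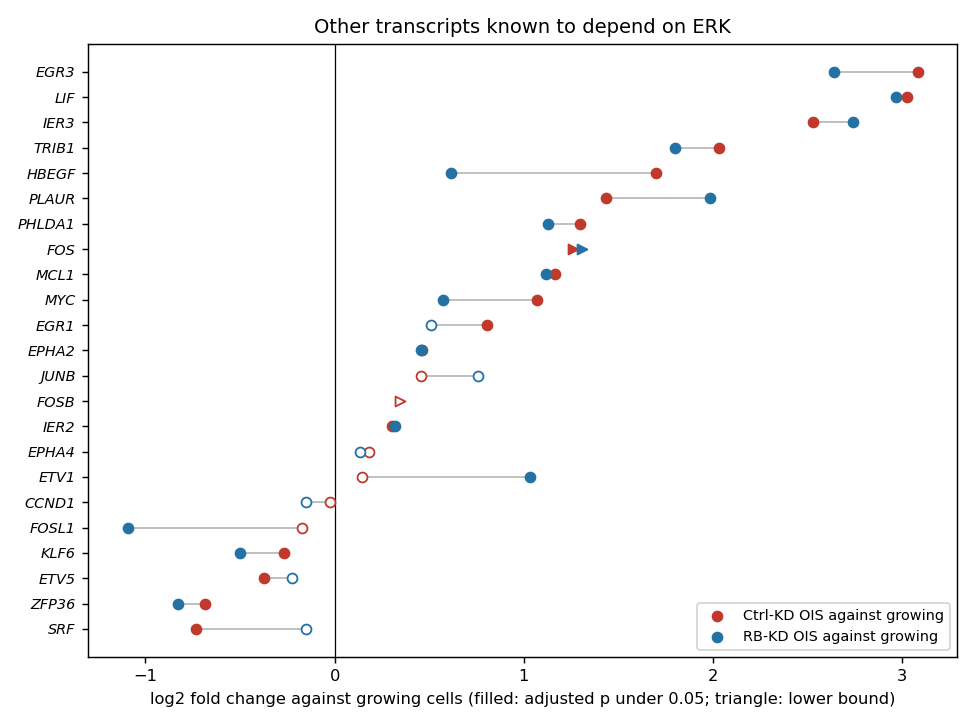
Log2 fold change against growing cells of 23 other transcripts known to depend on ERK, red for Ctrl-KD OIS and blue for RB-KD OIS cells, with a grey line joining the 2 values of a gene; filled points have an adjusted p under 0.05. Triangles mark FOS and FOSB, under the array median in growing cells, at their lower bound, with none for FOSB in RB-KD OIS cells, where it was also under the median. In each comparison 13 filled symbols lie to the right of 0, with EGR3, LIF and IER3 highest among the measured changes.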

How the data were processed

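RNA of 6 samples of IMR90 cells with ER:Ras, 2 per state, was hybridized to Affymetrix U133 Plus 2.0 arrays. The authors deposited MAS5 signal intensities, computed in Affymetrix Expression Console and scaled to a common trimmed mean. Arrays had median signals of 46 to 51.8, and no detection calls were used. Array number limits the precision. The members and lists were chosen with earlier results of these data known, so counts are set beside those of all genes and no list was tested.

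No offset was added before log2. A gene was represented by its brightest probe set naming it alone, and was tested if it exceeded the array median on 2 or more of 6 arrays. limma 3.58.1 in R 4.3.3 fitted 1 mean for each state, using all 6 arrays and a trended prior variance, and p values were adjusted by Benjamini-Hochberg (threshold 0.05). Where every array of a state was under its median, the fold is a lower bound computed from that median. The named genes of other lists were up to 4 called genes with the largest change in each comparison whose arrays did not overlap, and not all are printed. The fit was also run on simulated data with known changes and did not recover all of them, so a change can be missed. Alternatives included quantile normalization, centring on the median, an offset of 12.5 (percentile 25), filters of none or percentile 70, averaging the probe sets of a gene, no trend, fitting only the states compared, a block for the replicate number, and dropping each array. Replicates came from separate experiments.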

Additional observations from a re-analysis of the deposited data

How the results depend on the processing

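Of the 30 results of single genes, 12 passed the test in the same direction in each of the 15 alternatives: the rises of DUSP4, DUSP5, DUSP6, SPRY2 and SPRY4 and the fall of DUSP10, each against growing cells in both OIS states. Taking the mean of all probe sets left 5 of 8 rises in Ctrl-KD OIS cells, and SPRED2, whose other 2 probe sets were dim, then stood at -0.45 and -0.61 against growing cells. The counts between the OIS states were the least stable. The 1 higher gene became 0 with quantile normalization, no filter, the mean of all probe sets or no trend, and 2 with median centring or the stricter filter (where 9 genes were tested, without ETV4). The 1 lower gene became 0 with the mean of all probe sets or no trend. Leaving out single arrays gave 0 to 1 higher and 0 to 1 lower.

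Some genes that did not pass changed sign. ETV4 in Ctrl-KD OIS against growing cells was 0.12 with quantile normalization, 0.066 with centring and 0.68 with the mean of its probe sets, and ran from -0.24 to 0.18 when single arrays were left out. With single arrays left out, DUSP1 ran from -0.031 to 0.14 in RB-KD OIS cells set against growing cells. Between the OIS states DUSP6 was 0.062 with the mean and ran from -0.20 to 0.12, SPRED1 was 0.019, 0.012 and 0.13 with quantile normalization, centring and the mean and ran from -0.22 to 0.21, and SPRED2 was 0.0010 and 0.011 with the first 2 and ran from -0.10 to 0.091. HRAS in Ctrl-KD OIS cells ran from -0.050 to 0.21 with single arrays left out. Of 61 results of other named genes, 23 lost their call and 2 called ones, MAP2K2 (0.31) and SRF (-0.041) between the OIS states, changed sign with the mean of all probe sets. No trend lost 14 and leaving out single arrays 4 to 9 each. The cause of these shifts was not tested.

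The difference between replicates 2 and 1 correlated across genes at -0.0038 to 0.035 between states. This does not settle whether the replicate numbers pair the samples. With a replicate block, the OIS states differed in 2 higher and 2 lower genes, as DUSP10 (adjusted p = 0.0495) and SPRY2 (adjusted p = 0.0404) then passed. The block changed no other call of the 10 genes.

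Over all genes, 1682 were called higher and 1556 lower between the OIS states. These became 843 and 725 with the mean of probe sets, 940 and 641 with no trend, and 1067 and 852 without RB-KD OIS replicate 1. Against growing cells, the mean gave 1716 and 1843 in place of 2746 and 2840 for Ctrl-KD OIS, and 1416 and 1555 in place of 2481 and 2552 for RB-KD OIS, where leaving out growing replicate 1 or 2 gave 1647 or 1648 lower. With 2 arrays a state, dim probe sets such as those of ETV4 allow wide intervals, and a gene that did not pass is not shown to be equal between states.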

Other observations

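The ETS factors, the family to which ETV4 belongs, held the largest change of any gene named here. EHF, an epithelial ETS factor, read 12.5 and 18.6 in growing, 5516 and 3960 in Ctrl-KD OIS and 7654 and 6339 in RB-KD OIS cells, at least 92.3-fold and at least 138-fold higher than in growing cells, which were under the array median. Of 20 tested ETS factors, 3 rose and 5 fell in Ctrl-KD OIS cells, 4 rose and 0 fell in RB-KD OIS cells, and the OIS states differed in 2 higher and 1 lower. Of all tested genes 20.5% and 21.2%, 18.5% and 19.0%, and 12.6% and 11.6% were higher and lower in these comparisons, so 3 and 5 of 20 were near the share of all genes. The 5 that fell were 3 without growing replicate 1 and 2 without growing replicate 2 or Ctrl-KD OIS replicate 2, and the 2 higher between the OIS states were 5 without Ctrl-KD OIS replicate 1. With limma at an unadjusted p under 0.05, 3 of the 20 were lower in RB-KD OIS cells set against growing cells. For ELF2 the log2 fold change was -0.99 (adjusted p = 0.000342) for Ctrl-KD OIS against growing cells and 0.98 (adjusted p = 0.0011) with RB depleted, neither of which passed with the mean of its probe sets (adjusted p = 0.0896 and 0.0960). ETS1, a target of ERK phosphorylation, gave 0.84 (adjusted p = 0.000448) and -0.56 (adjusted p = 0.00909) in the same comparisons, and the second was lost without RB-KD OIS replicate 2 (-0.52, adjusted p = 0.0580).

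With log2 signals taken relative to the mean of the growing arrays, the tested genes nearest to DUSP6 by Euclidean distance over the 6 arrays were BPGM (0.133), ENO2 (0.218) and RAB31 (0.362). Nearest to SPRY2 were C2CD2 (0.194), E2F7 (0.249) and ENC1 (0.327), and nearest to DUSP1 were POLE3 (0.0749), TOMM70 (0.103) and BBLN (0.126). These are descriptions over 6 arrays that share their states.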
